A study of Mus musculus with 24 samples.

Results

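The 34 genes described here take up glucose and carry it through glycolysis to pyruvate and lactate: 3 glucose transporters, the hexokinases, the enzymes of the later steps, lactate exporters, pyruvate dehydrogenase and its kinases, and the regulator Hif1a. Open chromatin at these genes was read from ATAC-seq, in which the Tn5 transposase cuts accessible DNA. Every deposited interval touching a gene body, or the 5 kb on either side of it, was taken: 365 of 299780 intervals in the table of untreated cells and 357 of 272268 in the table of paused cells. Of these, 339 in each case passed the filter on low values, at least 10 normalized reads in at least 4 libraries, and were tested.

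All libraries came from E14, an established line of mouse embryonic stem cells, cultured with serum and the cytokine LIF on dishes coated with gelatin. There were 3 lines: wild type (WT) and the Smad2 knockout lines Smad2_KO1 and Smad2_KO2. Each was harvested as a control (Ctrl) or after 12 hours in 200 nM INK128, an inhibitor of the kinase mTOR (Paused), with 4 libraries per group, 24 in all. The labels do not say whether the 4 libraries of a group came from separate cultures, so p-values measure only the spread between these libraries. They also do not say whether each knockout line is 1 clone, and accessibility gives no reading of the Smad2 protein.

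Glucose enters cells through facilitative transporters and is trapped by hexokinase as glucose phosphate. Phosphofructokinase commits it to glycolysis, under the control of the bifunctional Pfkfb enzymes, and the lower enzymes turn it into pyruvate. Lactate dehydrogenase reduces pyruvate to lactate, which monocarboxylate transporters export, or pyruvate dehydrogenase passes it to the mitochondria unless its kinases switch it off. Pluripotent stem cells rely heavily on glycolysis, and mTOR signalling is known to raise glycolytic gene expression, in part through Hif1a. Smad2 carries Nodal and activin signals to chromatin.

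For 32 of the 34 genes RefSeq (GRCm38.p6, the assembly also named mm10) gave at least 1 promoter, a window of 250 bases before to 50 after a start. Slc2a3 and Slc2a4 were not in that table. The promoters below belong to the most accessible start (Pdhb), to the start intervals that limma called lower in both knockout lines under pausing (Pdk2 and Pfkm), and to Ldhb, whose upstream intervals are described below. Capitals mark the letters ACGTG, the core of the hypoxia response element, and CAGAC, the Smad binding element, on either strand.
Pdhb, chr14:8172943-8173242, minus strand: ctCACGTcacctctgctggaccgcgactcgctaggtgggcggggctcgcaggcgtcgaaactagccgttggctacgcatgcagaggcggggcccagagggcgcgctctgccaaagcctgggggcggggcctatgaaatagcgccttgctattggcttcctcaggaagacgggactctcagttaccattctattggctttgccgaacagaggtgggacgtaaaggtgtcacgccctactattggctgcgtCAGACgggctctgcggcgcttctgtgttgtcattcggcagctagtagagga
Pdk2, chr11:95041322-95041621, minus strand: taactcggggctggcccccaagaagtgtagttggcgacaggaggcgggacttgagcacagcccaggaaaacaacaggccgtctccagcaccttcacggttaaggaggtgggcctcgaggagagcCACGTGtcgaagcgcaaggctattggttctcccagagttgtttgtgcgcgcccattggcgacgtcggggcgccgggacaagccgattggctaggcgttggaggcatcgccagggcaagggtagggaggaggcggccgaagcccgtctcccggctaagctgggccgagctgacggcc
Pfkm, chr15:98108221-98108520, plus strand: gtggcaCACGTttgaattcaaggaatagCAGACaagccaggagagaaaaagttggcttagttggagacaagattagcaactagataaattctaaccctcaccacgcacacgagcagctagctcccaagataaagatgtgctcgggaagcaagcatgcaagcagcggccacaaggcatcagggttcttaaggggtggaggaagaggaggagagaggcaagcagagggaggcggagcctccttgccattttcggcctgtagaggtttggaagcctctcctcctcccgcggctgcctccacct
Ldhb, chr6:142507908-142508207, minus strand: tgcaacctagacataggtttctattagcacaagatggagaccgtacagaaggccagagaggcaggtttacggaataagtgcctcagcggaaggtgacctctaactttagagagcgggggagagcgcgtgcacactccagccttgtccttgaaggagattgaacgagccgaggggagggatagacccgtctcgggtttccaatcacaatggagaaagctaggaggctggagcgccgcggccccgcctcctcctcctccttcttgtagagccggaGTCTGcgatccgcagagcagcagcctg
The capitals in the Pdk2 promoter spell an E-box, CACGTG, which reads as the hypoxia core on both strands. The Ldhb promoter held no hypoxia core and 1 Smad element. Over the 52 member promoters, some of which overlap, ACGTG was found on either strand in 22 (42.3%), against 19.6% of the 32851 promoters in the table. CACGTG, which contains ACGTG, was in 7 (13.5%, against 7.15%) and the GC box GGGCGG in 23 (44.2%, against 35.7%). CCAAT, the NF-Y box, was in 38.5% against 37.4%, and CAGAC in 48.1% against 49.6%. These are letter matches, not sites shown to be bound.

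The reads in intervals numbered 11.5 to 20.0 M per library. Of the markers of embryonic stem cells, 7 of 8 had an interval near their start in Ctrl and 6 of 8 in Paused, against 1 of 4 for primitive endoderm and 1 of 4 for fibroblast. The share was 2 of 3 for mesoderm, and for trophoblast 1 of 4 in Ctrl and 3 of 4 in Paused. Summed over the 8 stem cell markers, the intervals held 2064 normalized reads in Ctrl WT, 2087 in Smad2_KO1 and 2081 in Smad2_KO2. The Paused sums were 2252, 2097 and 2075. The sums of the 4 other lists were lower in both knockout lines than in WT in both tables, as for primitive endoderm in Ctrl at 817 against 688 and 665; their part in the results below was not tested. The Paused libraries numbered 2 of Smad2_KO1 and Smad2_KO2 differed by no more than sampling noise (chi-square per degree of freedom 1.001, noise limit 1.0055). The 6 closest of all library pairs, from 1.001 to 1.074, each joined same-numbered libraries of the 2 knockout lines. Calls in the 2 knockout lines are therefore not counted as independent of each other, and counts without single libraries are given beside the totals.

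The median level of the 31 member intervals centred within 1000 bases of an annotated start was 277 normalized reads in Ctrl, where all intervals that near a start had 122. In Paused the medians were 319 and 161. For 26 of the 34 genes there was such an interval in each table, and the strongest of each gene is called its start interval. Every member interval is 201 bases wide, so levels can be set side by side within a table. Pdhb, which encodes the beta subunit of pyruvate dehydrogenase E1, was highest, at 630.3 ± 58.8 (SD, n = 4) in Ctrl WT, 640.4 ± 70.9 in Smad2_KO1 and 623 ± 23.5 in Smad2_KO2. Next came Eno1 (enolase; 557 ± 66.6 in Ctrl WT) and Hk2 (hexokinase 2; 517 ± 59.9), which did not differ from each other beyond their spread. The glucose transporter Slc2a1 had 446 ± 44.2 and Hif1a 441 ± 50.4. Near the lower end lay Slc16a3, the lactate exporter MCT4, with 132 ± 18.2.
Some genes had no comparable start interval. Gapdh had only 1 interval in Ctrl and 2 in Paused, none within 1000 bases of its start, and Eno2, Eno3, Hk3, Pfkl and Pgam2 were likewise represented by intervals elsewhere in their window. For Pkm, pyruvate kinase M, the strongest interval near a start was 620 bases past a start in Ctrl, at 22.9 ± 8.06 in WT, but 211 bases before one in Paused, at 504 ± 75.0. Eno1 and Ldha also had different start intervals in the 2 tables, so their plotted levels cannot be compared between treatments.

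**Figure D1:**
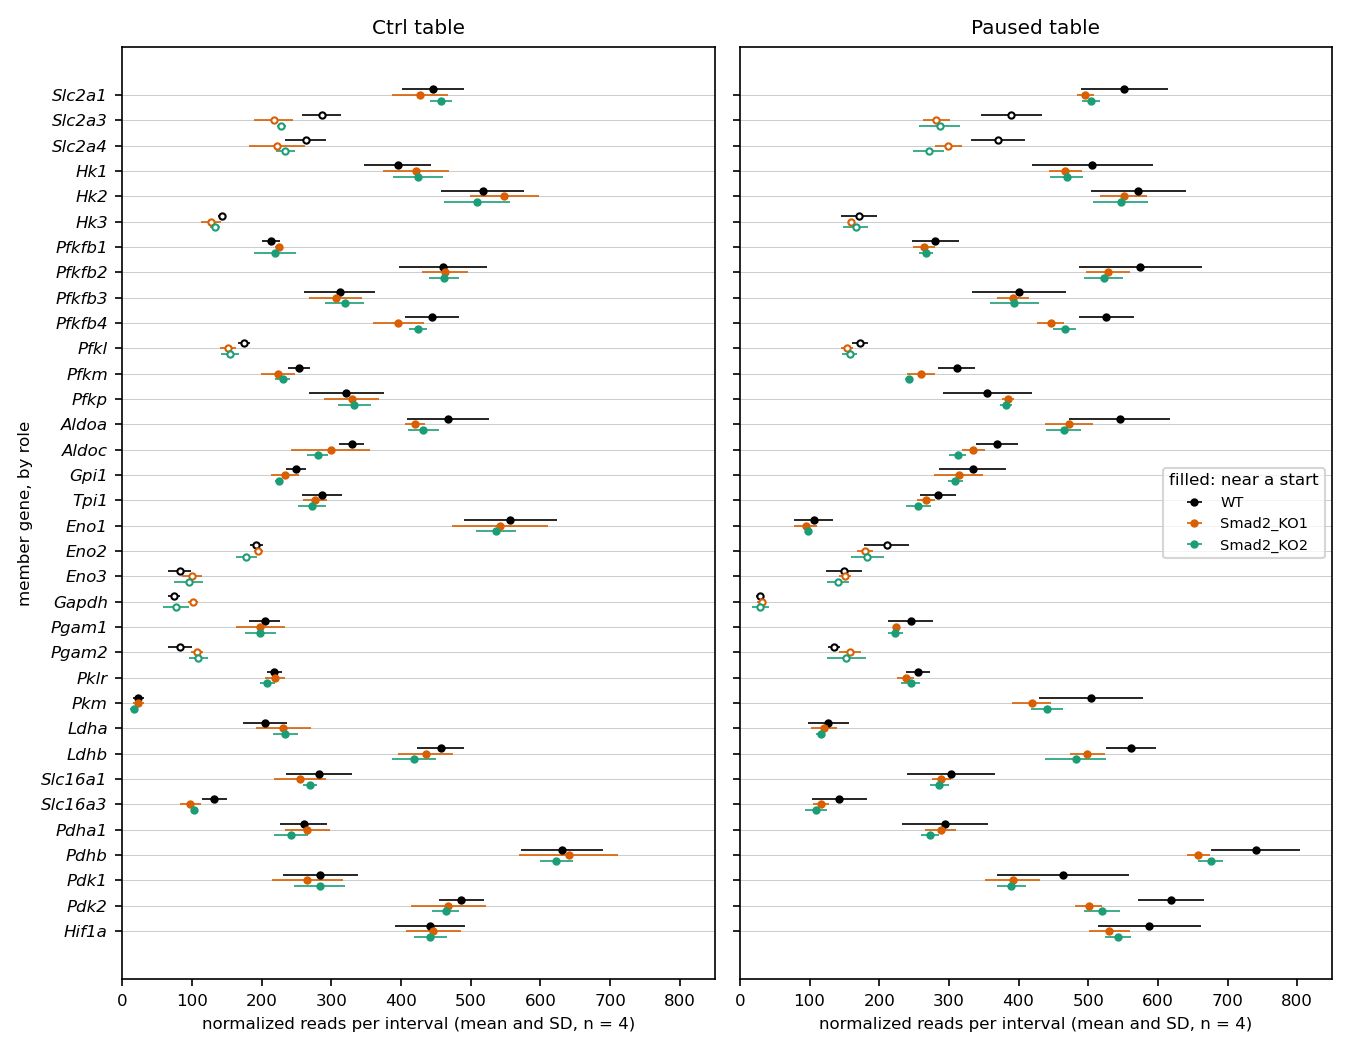
Normalized reads per interval (mean and SD, n = 4 libraries) at the start interval of each of the 34 genes, in rows by role, for WT and the 2 knockout lines, in the Ctrl and Paused tables. Open symbols are genes with no interval near an annotated start, shown by the strongest interval of their window; the lines overlap at most genes, and Pdhb is highest in both tables.

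In the knockout lines most of these intervals were not called, and the share called was close to that of all intervals. With limma on log2(value + 1) and Benjamini-Hochberg adjustment over all tested intervals, an interval was called where both knockout lines passed an adjusted p of 0.05 against WT with the same sign. In Ctrl 20 of the 339 tested intervals were called (5.90%), where 7.15% of all intervals were. In Paused 43 were called (12.7%), where 13.9% of all were. In Ctrl 12 of the calls were higher and 8 lower in the knockout lines (3.95% and 3.20% of all intervals), and in Paused 25 were higher and 18 lower (9.01% and 4.92% of all intervals). Of the calls, 3 in Ctrl and 10 in Paused (15.0% and 23.3% of the member calls, against 27.0% and 30.6% of all calls) passed the filter only through the group where they were high. Without the libraries of the group where it was high, such an interval would not have been tested. It is therefore given below as a description only, and 17 and 33 calls are left without such intervals. Singly, Smad2_KO1 had 36 calls in Ctrl and 73 in Paused (11.6% and 19.4% of all intervals), and Smad2_KO2 had 25 and 61 (10.7% and 19.3% of all intervals). Between Smad2_KO1 and Smad2_KO2 limma called 0 member intervals in either table (0% of all intervals), with 15 and 8 at an unadjusted p under 0.05, and edgeR and DESeq2 also called 0.
The balance of higher and lower calls depends on the scaling. The authors' scaling put the median log2 fold change of all intervals at 0.08 in Ctrl and 0.12 in Paused, and size factors computed by the DESeq2 method put it at 0.01 and 0.02. With those size factors 7 calls were higher and 12 lower in Ctrl, and 14 were higher and 37 lower in Paused. Of the 20 and 43 calls, 15 and 32 were made in the same direction under both scalings, 7 higher and 8 lower in Ctrl and 14 higher and 18 lower in Paused. Every call given with a fold change or a mean below is one of these unless it is said to be lost with the size factors, or was not made by limma. The median log2 fold change over the member intervals was 0.04 in Ctrl and 0.06 in Paused.
Single libraries moved the counts. The Ctrl count of 20 was 11 without WT replicate 4, 12 without Smad2_KO1 replicate 1 or 2, 13 without Smad2_KO1 replicate 3 and 10 without Smad2_KO2 replicate 2. The Paused count of 43 was 26 and 28 without Smad2_KO1 replicates 2 and 3, and 27 without Smad2_KO2 replicate 2.
At starts, limma called the member intervals at shares near those of all intervals within 1 kb of a start. It called 1 of 31 in Ctrl (3.23%, against 4.75%) and 4 of 31 in Paused (12.9%, against 13.9%). The tools that scale the libraries themselves called more starts in Paused, all lower: edgeR and DESeq2 each called 9 of the 31 (29.0%), where they called 25.3% and 19.9% of all intervals near a start. In Ctrl edgeR called 3 (9.68%, against 7.69%) and DESeq2 1 (3.23%, against 4.11%). Of the 26 start intervals limma called 0 in Ctrl, with 1 at an unadjusted p under 0.05 in each line, while edgeR called 1 and DESeq2 0. In Paused limma called 2, and edgeR and DESeq2 called 8 each. The median log2 fold change at start intervals was -0.05 in Ctrl and -0.12 in Paused, and that of all intervals within 1 kb of a start -0.05 and -0.10. Inside the gene bodies away from starts, 11 of 217 intervals were called in Ctrl (5.07%, against 7.15% of all intervals). In Paused 29 of 219 were called (13.2%, against 13.9%). Their median log2 fold changes were 0.11 and 0.18, where those of all intervals were 0.08 and 0.12.
Of the 20 Ctrl calls 19 had a matching interval in Paused (overlap of at least 50% of each), and 13 of these (68.4%, against 59.2% of all matched Ctrl calls) were called there in the same direction. Of the 43 Paused calls 33 had a match in Ctrl, and the same 13 (39.4%, against 32.8% of all matched Paused calls) were called there. There was no opposite call, neither here nor among all intervals. Those 13 lay at Slc2a3, Hk1, Pfkm, Pfkp, Pfkfb4, Eno2, Pkm, Ldhb, Slc16a3 and Pdk1. The ones at Hk1, Pfkfb4 and Slc16a3 passed the filter only through the knockout libraries in both tables, and that at Eno2 did so in Paused. The shares of all matched calls also include such intervals. The 2 tables share no libraries but hold the same 3 lines, so calls in the 2 tables are not independent of each other.

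**Figure D2:**
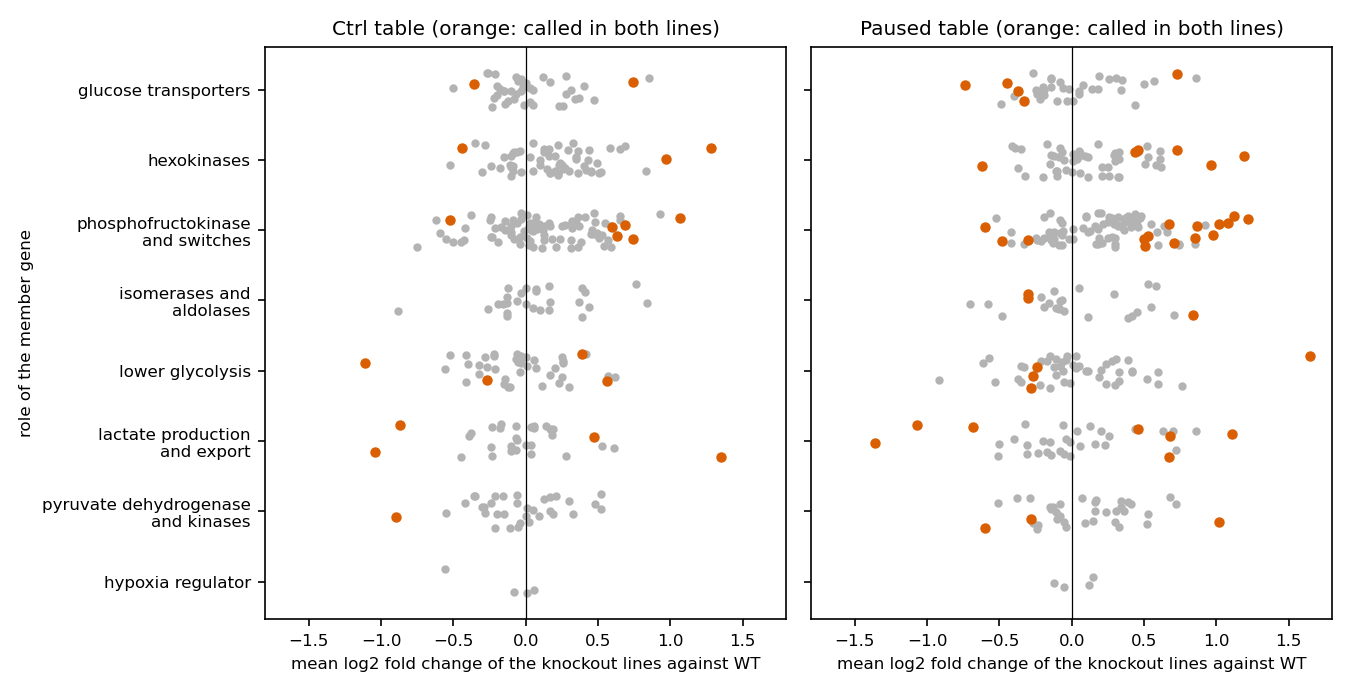
Mean log2 fold change of the 2 knockout lines against WT for each tested member interval (1 point per interval), by role of the gene, in the Ctrl and Paused tables. The coloured points are the 20 and 43 intervals called in both lines, and they lie on both sides of 0 in most roles. The lowest coloured point in Paused, at Ldhb, and the highest, at Eno2, passed the filter only through the group where they are high.

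Among the glucose transporters, Slc2a3 (GLUT3) had both Ctrl calls and 4 of the 5 Paused calls. It also held 26 of the 42 tested transporter intervals in Ctrl and 18 of the 38 in Paused. In Ctrl 2 of the 42 were called (4.76%, against 7.15% of all intervals), 1 in each direction. In Paused 5 of the 38 were called (13.2%, against 13.9%), of which 4 were lower (8 of 9 lower with the size factors). The strongest Slc2a3 interval, inside its gene body at chr6:122742487-122742687, held 318, 255, 272 and 299.8 normalized reads in the 4 Ctrl WT libraries. It held 217, 188, 209 and 254 in Smad2_KO1 and 234, 218, 229.5 and 232 in Smad2_KO2. All 8 knockout libraries lay below all 4 WT libraries. The log2 fold changes were -0.40 ± 0.10 (SE, adjusted p = 0.00490, limma) and -0.32 ± 0.10 (adjusted p = 0.0269, limma).
In Paused the same interval held 389.6 ± 43.4 in WT against 282 ± 19.1 and 287 ± 29.2, again without overlap, with log2 fold changes of -0.46 and -0.44 (adjusted p = 0.000506 and 0.000802, limma). Another Slc2a3 interval, at chr6:122777258-122777458, went the other way. It held 43.1 ± 4.88 normalized reads in Ctrl WT against 73.0 ± 9.76 and 73.0 ± 11.6, a log2 fold change of 0.74 in each line, and it was higher in Paused too, at 0.76 and 0.70. Slc2a3 thus had calls of opposite sign within 1 gene. Slc2a4 is the insulin-responsive GLUT4, and its interval at chr11:69948159-69948359 fell in Paused from 370.1 ± 38.9 in WT to 299 ± 19.5 and 271 ± 22.7. Slc2a1, which encodes GLUT1, had 0 of 9 intervals called in Ctrl and 0 of 12 in Paused by limma (0 and 1 at an unadjusted p under 0.05 in both lines), while edgeR and DESeq2 each called 1 in Paused. Its start interval held 446 ± 44.2, 427 ± 40.3 and 457 ± 15.7 in Ctrl WT, Smad2_KO1 and Smad2_KO2.

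At the hexokinases, calls lay in and behind the gene bodies of Hk1 and Hk2 and not at their starts. Of the hexokinase intervals 4.76% were called in Ctrl and 10.5% in Paused, where 7.15% and 13.9% of all intervals were. Hk1, the widely expressed form, had 3 of 32 intervals called in Ctrl and 2 of 28 in Paused, 1 of which was lost with the size factors. The interval at chr10:62367132-62367332 was called higher in both tables but passed the filter only through the knockout libraries. In Ctrl it held 8.54, 5.37, 6.57 and 2.16 normalized reads in WT, 9.40, 15.4, 14.1 and 11.6 in Smad2_KO1 and 16.0, 16.4, 21.3 and 11.1 in Smad2_KO2. These values are given as a description only. Another, at chr10:62375080-62375280, had log2 fold changes of 0.90 and 1.04 in Ctrl. The interval at chr10:62282834-62283034 fell from 146 ± 9.39 in Ctrl WT to 109 ± 13.5 and 106 ± 8.03.
Hk2 is the inducible form typical of fast-growing cells. In Ctrl 0 of its 22 intervals were called by limma, edgeR or DESeq2 (2 at an unadjusted p under 0.05 in both lines). Limma called 4 of its 21 intervals in Paused (19.0%, against 13.9% of all intervals). The only fall was at chr6:82760966-82761166, 13.4 kb inside the gene. Its Paused WT libraries held 131, 129, 173 and 197 normalized reads, against 106, 90.6, 97.6 and 108 in Smad2_KO1 and 106, 90.0, 102 and 104 in Smad2_KO2. No knockout library reached the lowest WT library, and the log2 fold changes were -0.62 ± 0.12 (SE, adjusted p = 0.000542, limma) and -0.62 ± 0.12 (adjusted p = 0.000547, limma). An interval further into the gene, chr6:82731863-82732063, held 5.69 ± 2.39 normalized reads in WT against 14.7 ± 5.24 and 13.4 ± 3.59, and passed the filter only through the knockout libraries. The other 2 Hk2 calls, both higher, were lost with the size factors. Hk3 had 0 calls in both lines in either table by limma, edgeR and DESeq2 (1 and 2 intervals at an unadjusted p under 0.05).

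The genes of the phosphofructokinase step encode the committed enzyme (Pfkm, Pfkl, Pfkp) and the Pfkfb enzymes that make and remove its strongest activator. In Ctrl 6 of 94 intervals were called (6.38%, against 7.15% of all intervals), 5 higher, and in Paused 15 of 91 (16.5%), 12 higher. This was the role with the most tested intervals, and its share lay between the 13.9% of all intervals and the 19.4% of the lactate genes. Of the calls, 1 in Ctrl and 4 in Paused passed the filter only through the knockout libraries. With the size factors the split was 3 and 3 in Ctrl and 6 higher and 4 lower in Paused. Pfkm, the muscle isoform, had calls at 7 of 14 intervals in Paused (5 higher, 2 lower), and at 4 with the size factors. Its start interval overlaps the promoter shown above, but the capitals there lie outside the interval. A second Pfkm promoter, chr15:98108306-98108605, spans the whole interval and held 0 of either marked motif. The start interval held 330.3, 273, 318 and 323 normalized reads in Paused WT. The knockout libraries held 255, 236, 269 and 281 in Smad2_KO1 and 247, 249, 236 and 239.6 in Smad2_KO2. Only 1 knockout library, of Smad2_KO1, exceeded the lowest WT library, and the log2 fold changes were -0.26 ± 0.09 (SE, adjusted p = 0.0371, limma) and -0.35 ± 0.09 (adjusted p = 0.00474, limma).
Other Pfkm intervals moved alike in both tables. That at chr15:98114587-98114787, 2.6 kb past a start, fell from 98.5 ± 10.3 in Ctrl WT to 63.9 ± 10.3 and 73.0 ± 2.02, and from 86.6 ± 15.0 in Paused WT to 59.7 ± 8.23 and 53.7 ± 7.05. That at chr15:98125266-98125466, 13.3 kb past a start, rose from 32.1 ± 2.15 to 56.9 ± 16.0 and 50.1 ± 5.96 in Ctrl. In Paused it rose from 25.0 ± 5.12 to 55.8 ± 10.7 and 55.2 ± 12.1, with log2 fold changes of 1.13 and 1.11 (adjusted p = 3.66e-05 and 5.04e-05, limma). Pfkp, the platelet isoform, had 1 interval higher in both tables, chr13:6588624-6588824, deep in the gene, with 36.1 ± 6.94 normalized reads in Ctrl WT against 62.2 ± 6.50 and 58.9 ± 8.97. In Paused its log2 fold changes were 1.11 and 0.94, and another Pfkp interval rose there by 0.65 and 0.77. Pfkl, the liver isoform, had 0 of 7 and 0 of 9 intervals called by limma, edgeR or DESeq2, with 0 at an unadjusted p under 0.05 in both lines.
Of the Pfkfb genes, Pfkfb3 and Pfkfb4 had calls by limma in both lines. Pfkfb2 had 0 calls by limma in either table (1 interval at an unadjusted p under 0.05 in both lines in Ctrl, 0 in Paused), while edgeR and DESeq2 each called 1 of its intervals lower in Ctrl and 0 in Paused. Pfkfb3, whose product strongly favours glycolysis, had 2 calls in Ctrl and 3 in Paused, all higher. Only that at chr2:11544796-11544996 in Paused was also made with the size factors. It held 9.26 ± 1.73 in WT against 20.4 ± 4.50 and 20.8 ± 1.90, and passed the filter only through the knockout libraries. Pfkfb4 had 1 interval called higher in Ctrl, at chr9:109020975-109021175, with 17.2 ± 7.53 in WT against 39.2 ± 5.81 and 32.3 ± 10.2, which passed the filter only through the knockout libraries. In Paused 2 Pfkfb4 intervals were called higher, 1 of them lost with the size factors, and 1 lower. The rise made under both was at chr9:108998862-108999062 (log2 fold changes 1.03 and 0.93). The fall, at chr9:109000834-109001034, was from 159 ± 16.2 in WT to 116 ± 5.99 and 111 ± 11.8. The Pfkfb4 start interval in Paused was not called by limma, while edgeR, DESeq2 and limma with the size factors called it lower.

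The isomerases and aldolases rearrange and split the sugar into trioses, and in Paused their share of calls was near that of all intervals. In Ctrl 0 of their 27 tested intervals were called in both lines by limma or DESeq2 and 1 by edgeR, with 1 at an unadjusted p under 0.05 in each line. Limma called 7.15% of all intervals there. In Paused limma called 3 of 26 (11.5%, against 13.9% of all intervals), and none was at the gene's own start, while edgeR called 4 and DESeq2 3. The Aldoa start interval was called lower in Paused by edgeR, DESeq2 and limma with the size factors. The limma calls at Aldoa and Aldoc, both lower (log2 fold changes -0.33 and -0.28 at Aldoa, -0.31 and -0.29 at Aldoc), lay past the gene bodies. They were at annotated starts of the neighbouring genes Ppp4c and Pigs. The Tpi1 call, 4.4 kb before the start at chr6:124818507-124818707, rose from 19.1 ± 3.82 to 40.8 ± 7.18 and 29.8 ± 2.77.

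In lower glycolysis, from glyceraldehyde phosphate to pyruvate, an interval called higher under pausing lay 3.7 kb before the start of Eno2. Eno2 encodes the neuron-type enolase. The interval passed the filter only through the knockout libraries, since 1 WT library was under 10. In Paused WT the interval, chr6:124773238-124773438, held 10.8, 9.66, 25.9 and 25.2 normalized reads, against 39.9, 58.9, 57.9 and 51.7 in Smad2_KO1 and 53.9, 69.0, 55.0 and 44.9 in Smad2_KO2. The log2 fold changes, 1.61 and 1.70, are given as a description only because of that filter. In Ctrl the same place had a smaller difference that was lost with the size factors, with 26.8 ± 7.99 in WT against 39.5 ± 5.51 and 38.9 ± 5.09.
Eno1, the main enolase, had 1 interval that fell in Ctrl, 1.9 kb before a start, from 29.0 ± 8.17 in WT to 12.4 ± 7.45 and 14.2 ± 1.05, with overlap between the groups. Another, inside the gene, fell in Paused (log2 fold changes -0.26 and -0.28). In Pkm, the enzyme that makes pyruvate, the calls were all lower. One lay inside the gene in Paused, at chr9:59659805-59660005, falling from 354 ± 13.4 to 298 ± 13.3 and 287 ± 15.9. The other, in both tables, lay past the gene's end at the start of the neighbouring gene Gramd2. Limma did not call the Pkm start interval of Paused in both lines, while edgeR, DESeq2 and limma with the size factors called it lower. Gapdh, Pgam1 and Eno3 had 0 intervals called in both lines by limma, edgeR or DESeq2 in either table and 0 at an unadjusted p under 0.05 in both. The single Pgam2 call in Ctrl was lost with the size factors.

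Ldhb, which encodes the heart-type subunit of lactate dehydrogenase, had falls before the gene. An interval 3.6 kb before its start, chr6:142511473-142511673, held 52.3, 60.9, 46.0 and 55.0 normalized reads in Ctrl WT. Smad2_KO1 had 19.7, 28.8, 33.7 and 39.3, and Smad2_KO2 had 26.1, 20.9, 30.8 and 37.2. The highest knockout library stayed below the lowest WT library, and the log2 fold changes were -0.83 ± 0.19 (SE, adjusted p = 0.00292, limma) and -0.90 ± 0.19 (adjusted p = 0.00145, limma).
In Paused the matching interval, chr6:142511528-142511728, had higher values in all 3 lines, and the lines again lay apart. WT held 233, 229, 212 and 216 normalized reads. Smad2_KO1 held 87.4, 106, 106 and 118, and Smad2_KO2 held 73.9, 134, 90.9 and 144. No knockout library reached the WT range. The log2 fold changes were -1.09 ± 0.14 (SE, adjusted p = 7.33e-07, limma) and -1.05 ± 0.14 (adjusted p = 1.37e-06, limma).
A neighbouring interval 5.1 kb before the start, chr6:142512951-142513151, also fell. In Ctrl it went from 62.4 ± 17.3 to 28.0 ± 4.63 and 31.0 ± 6.88. In Paused it went from 83.5 ± 5.81 to 49.1 ± 6.29 and 54.9 ± 3.55. Limma did not call the Ldhb start interval in both lines in either table, and it held 457 ± 33.6, 435 ± 39.1 and 418 ± 31.8 in Ctrl. In Paused it passed in Smad2_KO2 alone (log2 fold changes -0.17 and -0.22, adjusted p = 0.109 and 0.0367, limma), while edgeR, DESeq2 and limma with the size factors called it lower in both lines. An interval past the gene's end, chr6:142485718-142485918, held 15.6 ± 4.42 in Paused WT against 6.09 ± 2.09 and 5.21 ± 2.75, and passed the filter only through the WT libraries. The 4 other Ldhb calls, 2 in each table, were all upstream and lower in the knockout lines, and were also made with the size factors, edgeR and DESeq2.

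**Figure D3:**
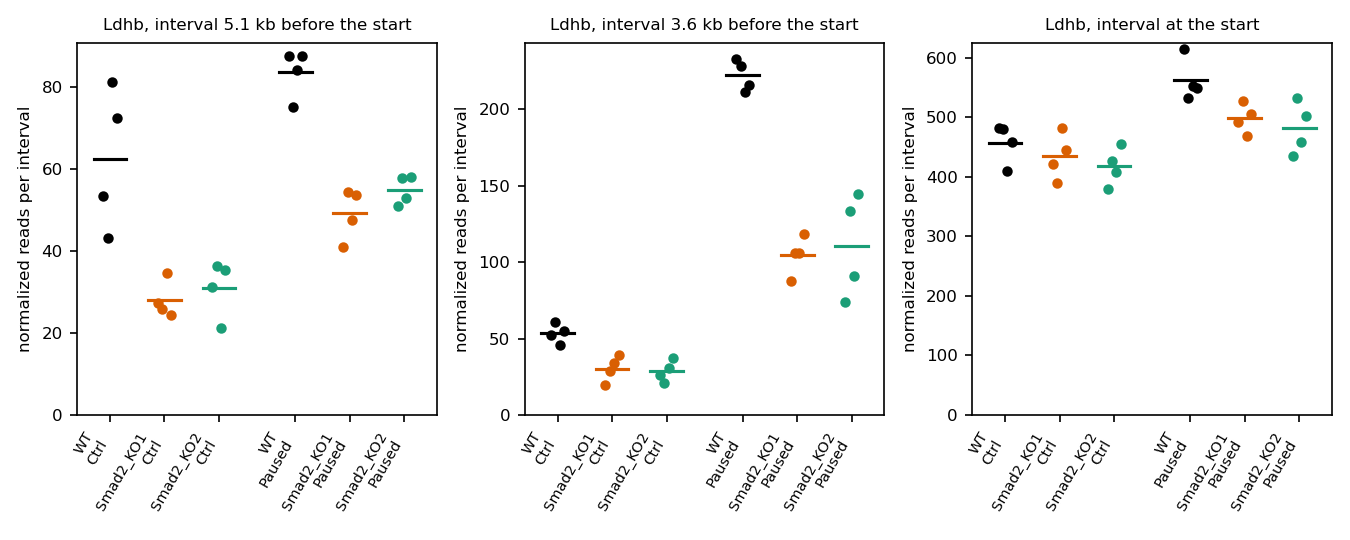
Normalized reads in each of the 24 libraries (points, with the mean of each group as a bar) at 3 Ldhb intervals: 5.1 kb before, 3.6 kb before and at the annotated start, each on its own scale from 0. At 3.6 kb the knockout libraries lie below WT in both treatments, and all 3 lines lie higher in Paused; at the start the lines overlap in Ctrl.

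Ldha, which encodes the muscle-type subunit that favours lactate production, had calls of the other sign. In Ctrl 1 of 7 intervals was called (against 7.15% of all intervals) and in Paused 3 of 9 (against 13.9%), all higher. Only that at chr7:46853435-46853635 was also called with the size factors. It rose from 40.7 ± 7.03 in Paused WT to 61.4 ± 4.27 and 69.6 ± 9.60, with log2 fold changes of 0.59 and 0.77 (adjusted p = 0.00526 and 0.000500, limma). Of the lactate exporters, Slc16a3 had lower knockout values at its start in Ctrl, 132 ± 18.2 in WT against 97.5 ± 15.3 and 103 ± 2.77, with all 8 knockout libraries below WT. Limma called this in Smad2_KO1 alone (log2 fold changes -0.43 and -0.34, adjusted p = 0.0181 and 0.0735, limma), and edgeR and limma with the size factors called it in both lines. A weak interval 2.6 kb before that start was called higher in both tables but passed the filter only through the knockout libraries, with 6.72 ± 4.19 in Ctrl WT against 15.3 ± 4.87 and 16.4 ± 4.93. Slc16a1 (MCT1) had 0 calls in both lines in either table by limma (0 in Ctrl and 3 in Paused at an unadjusted p under 0.05), while edgeR called 1 in Paused and DESeq2 0.

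Among the genes that decide the mitochondrial entry of pyruvate, the kinase gene Pdk1 had a fall at its second annotated start. The interval chr2:71874951-71875151, 147 bases past that start, held 64.1, 68.1, 88.7 and 85.2 normalized reads in Ctrl WT. Smad2_KO1 had 40.2, 41.1, 38.4 and 42.7, and Smad2_KO2 had 50.1, 46.4, 21.3 and 51.3. The groups did not overlap, and the log2 fold changes were -0.88 and -0.91 (adjusted p = 0.000865 and 0.000677, limma). It was also lower in Paused, at -0.66 and -0.54. The stronger interval at the first start, 284 ± 54.0, 265 ± 50.9 and 283 ± 36.9 in Ctrl, was not called by limma in both lines in either table, while edgeR and DESeq2 called it lower in Paused. A Pdk1 interval deep in the gene, chr2:71892712-71892912, held 9.59 ± 5.37 in Paused WT against 17.9 ± 3.98 and 20.2 ± 4.16, and passed the filter only through the knockout libraries.
The start interval of Pdk2, a second such kinase whose promoter is shown above, fell in Paused. It held 657, 561, 599 and 659.5 normalized reads in WT against 509, 491, 479 and 523 in Smad2_KO1 and 492, 505, 529 and 553 in Smad2_KO2. The knockout libraries all lay below WT, by -0.30 ± 0.07 and -0.25 ± 0.07 in log2 (SE, adjusted p = 0.00354 and 0.0149, limma). None of the 4 intervals of Hif1a, the hypoxia-induced activator of many of these genes, was called in either table by limma, edgeR or DESeq2 (0 at an unadjusted p under 0.05 in both lines), and its start interval held 588 ± 73.8, 530.4 ± 29.4 and 543 ± 19.0 in Paused.

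The effect of pausing in WT was read from 242 member intervals that matched between the tables. A further 123 Ctrl and 115 Paused intervals had no match. Because the tables were normalized separately, differences are given relative to the median of all 215826 matched intervals (0.08 in log2) and were not tested. The member median was 0.08 above that. In 30 intervals (12.4%, against 17.6% of all matched intervals) the 4 Paused libraries lay wholly on 1 side of the 4 Ctrl libraries after that median was taken off: 21 higher (8.68%, against 9.80%) and 9 lower (3.72%, against 7.83%). In Smad2_KO1 73 intervals lay apart (30.2%, against 22.2%), and in Smad2_KO2 53 (21.9%, against 20.0%). Stronger intervals had higher differences throughout the genome, from a median of -0.15 in the lowest of 10 equal bins by level to 0.19 in the highest, where 49 of the member intervals lay.
With 1 library left out, which makes full separation easier by construction, between 38 and 51 WT intervals lay apart. The count was 47 without Ctrl WT replicate 1, 49 without Ctrl WT replicate 4, 48 without Paused WT replicate 2 and 51 without Paused WT replicate 3.

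**Figure D4:**
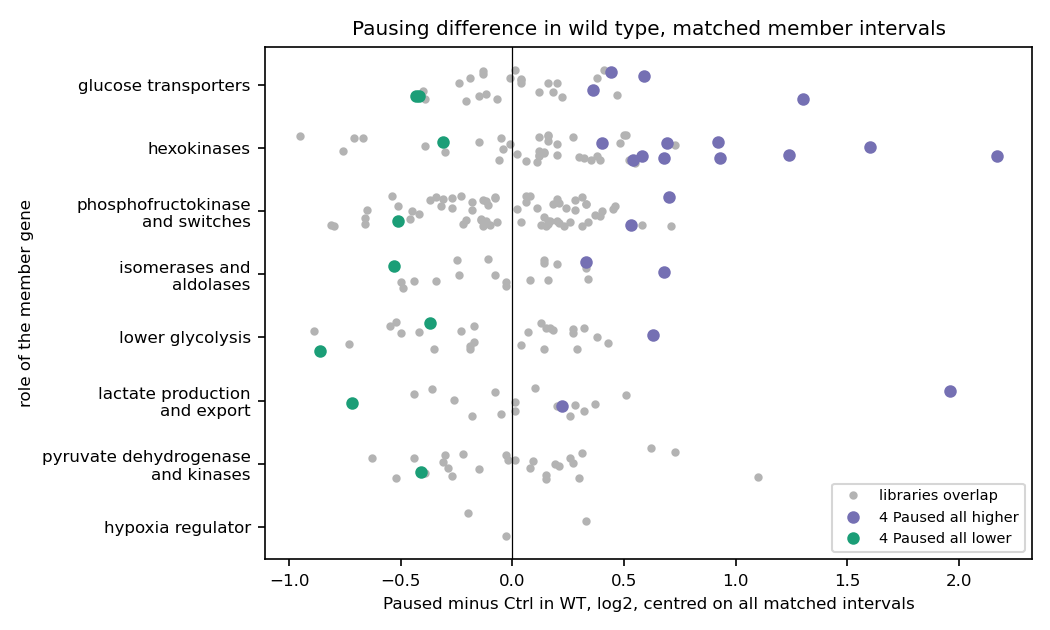
Difference between Paused and Ctrl in WT (log2, relative to the median of all matched intervals) for 242 matched member intervals, by role of the gene. Coloured points are the 30 intervals whose 4 Paused libraries lie wholly above (21) or below (9) the 4 Ctrl libraries; the 3 largest are at Hk1 and Ldhb.

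The largest openings with pausing were inside Hk1 and upstream of Ldhb. At the Hk1 interval chr10:62287571-62287771, the Ctrl WT libraries held 28.8, 18.8, 8.76 and 9.71 normalized reads. The Paused WT libraries held 73.4, 77.3, 76.6 and 70.2, a relative difference of 2.17. In the knockout lines the means went from 20.3 to 76.5 and from 20.2 to 76.5. Another Hk1 interval, chr10:62314222-62314422, went from 51.9 ± 9.92 to 170.0 ± 36.0 in WT, a relative difference of 1.60. It lay apart in the knockout lines too. Of the 26 matched Hk1 intervals 7 were wholly higher and 1 wholly lower in Paused WT, where 9.80% and 7.83% of all matched intervals were. Hk1 was counted singly after its values were seen. Its start interval, which holds the strongest signal, was not among them. The Ldhb interval 3.6 kb before the start had a relative difference of 1.96 in WT, 1.68 in Smad2_KO1 and 1.78 in Smad2_KO2. The next rises were at Slc2a4, outside the gene body at chr11:69937367-69937567 (16.7 ± 3.53 to 44.3 ± 1.34, relative difference 1.30), and at the Hk1 interval chr10:62367132-62367332 (1.24), which was also higher in the knockout lines. The matched Slc2a4 interval of Paused was shifted, at chr11:69937453-69937653. The Slc2a4 and Ldhb pairs overlapped by less than 80%, so a match that asks for 80% leaves them out.

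**Figure D5:**
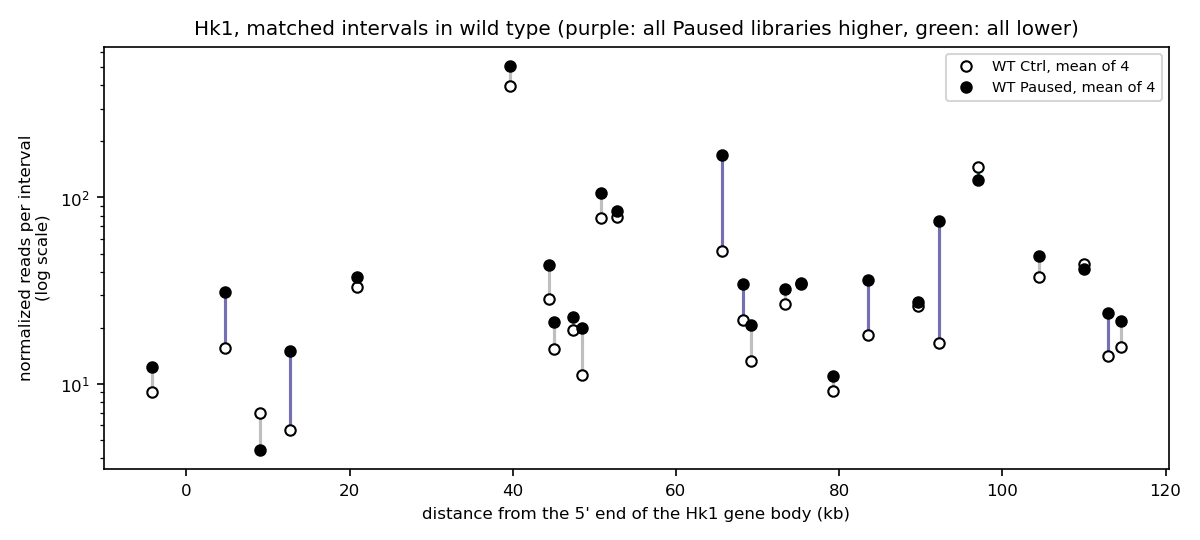
Mean normalized reads (log scale) of the 4 Ctrl (open) and 4 Paused (filled) WT libraries at 26 matched Hk1 intervals, by distance in kb from the 5′ end of the gene body. Purple lines join the 7 intervals whose Paused libraries were all higher and green, largely hidden by its points, the 1 where all were lower; the strongest interval, at the inner start, is joined in grey.

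The falls with pausing were smaller. The 5 largest among intervals that lay apart were inside Pkm (-0.86), past the end of Ldha (-0.72), before Tpi1 (-0.53), in Pfkp (-0.51) and at the Slc2a3 interval that was higher in the knockout lines (-0.43). The Pkm pair overlapped by less than 80%, so the stricter match leaves it out too. The Ldha interval, chr7:46855841-46856041, held 102, 146, 151 and 121 normalized reads in Ctrl WT and 82.0, 86.9, 91.7 and 68.9 in Paused WT, and it also lay apart downwards in both knockout lines (-0.74 and -0.77). Of the start intervals plotted above, only those of Slc2a3 (0.36), Ldhb (0.22) and Pgam2 (0.63) lay apart in WT. Slc2a3 and Pgam2 are shown by the strongest interval of their window. The promoters used held no start of Slc2a3, so how far its interval lies from one is not known here. That of Pgam2 lay 6300 bases past its start, in the gene body of Dbnl. The Ldhb value is near the median of 0.19 in the highest of the 10 bins by level, where 29.0% of all intervals lay apart. The first Pdk1 start went from 284 ± 54.0 to 464 ± 94.6 without full separation.

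Other genes of sugar metabolism were called at shares on both sides of the genome's, which were 7.15% in Ctrl and 13.9% in Paused. Higher and lower calls are given for the authors' scaling alone. Under it 3.95% of all intervals were higher and 3.20% lower in Ctrl, and 9.01% and 4.92% in Paused. In Ctrl, 11 of 94 intervals (11.7%) at other glucose and hexose transporters were called in both lines (8 higher, 3 lower). Other glycolysis and pyruvate enzymes had 6 of 167 (3.59%, 4 and 2), and gluconeogenesis genes 1 of 28 (3.57%, higher). Pentose phosphate genes had 2 of 54 (3.70%, 1 and 1) and glycogen genes 9 of 145 (6.21%, 8 and 1). Genes of hypoxia and glucose control had 10 of 156 (6.41%, 9 and 1). In Paused the transporter list had 17 of 88 (19.3%, 12 and 5) and the enzyme list 15 of 146 (10.3%, 6 and 9). Gluconeogenesis genes had 4 of 30 (13.3%, all higher). The pentose phosphate and glycogen lists had 7 of 57 (12.3%, 3 and 4) and 20 of 122 (16.4%, 16 and 4). The control list had 26 of 149 (17.4%, 19 and 7). Of the control list's calls, 4 in Ctrl and 11 in Paused passed the filter only through the group where they were high. So did 4 of the 6 Ctrl calls of the enzyme list, and 0 to 5 calls for the other entries. The median log2 fold changes of these 6 lists lay between -0.03 and 0.14 in Ctrl, where that of all intervals was 0.08. In Paused they lay between 0.05 and 0.18, where that of all intervals was 0.12.

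In the authors' deposited table of knockout against WT, 33 of the 365 Ctrl intervals had an FDR under 0.05, 19 higher and 14 lower, and all 20 calls were among them. In Paused the authors' deposited table had 86 of 357, 45 higher and 41 lower, with all 43 calls among them.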

How the data were processed

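ATAC-seq was run on 50000 cells per library and sequenced in pairs, per the labels' protocols. The submitters' processing notes name the mm10 build, FastQC, Trim Galore, Bowtie2 2.4.1, MACS3 3.0.3 and DiffBind 3.16.0. The deposited values are a signal: the authors scaled each library's reads per interval by a single factor and rounded the result to 2 decimals. Dividing by that step gave whole reads within a tolerance of 0.0051 normalized reads for at least 99.99% of the values of a library, though in 4 libraries the factor was too near 1 for this to be a check. The Ctrl and Paused tables were normalized separately, so tests stayed within a table. The authors' deposited log2 fold changes, p-values and FDR compare the 8 knockout libraries with WT and are used in 1 paragraph only.
The main test was limma 3.58.1 (R 4.3.3) with an intensity trend on log2(value + 1), over all 12 libraries of a table, for intervals with a value of 10 or more in at least 4 libraries, with Benjamini-Hochberg adjustment. It was also run on simulated counts drawn independently for each library. That run does not bear on the likeness of same-numbered knockout libraries or on the choice of scaling. edgeR 4.0.16 and DESeq2 1.42.0 on the recovered reads were alternatives, with other scalings, filters, pseudocounts, windows and libraries left out. Intervals of the tables were matched where they overlap by at least 50% of each. Gene bodies and starts came from RefSeq (GRCm38.p6), without exon boundaries, so intervals are placed only inside or outside a gene body.
Intervals were named by rule: each gene's start interval (the strongest within 1000 bases of a start, or else in the window), the Ctrl calls, the 10 higher and 10 lower Paused calls with the largest smaller fold change, and the 5 largest rises and falls with pausing. Other intervals, and the promoters other than that of Pdhb, were chosen after their values were seen. The members and gene lists were chosen with earlier results of these data known.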

Additional observations from a re-analysis of the deposited data

Results flagged for a closer look

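Of 360 groups of 4 libraries at named intervals, 12 had 1 library far from the other 3, where chance alone gives about 1 in 20 groups, or 18.0. In Ctrl, the Pfkm start interval held 230.2 normalized reads in WT replicate 2 and 260.6 to 262.8 in the others. The Pgam1 start interval held 169.8 in WT replicate 3, with 212.3 to 216.8 in the others. At Slc2a3 the interval that was higher in the knockout lines held 50.38 in WT replicate 3, above 40.31 to 40.98. For Smad2_KO2 in Ctrl, replicate 3 was low at the Pfkfb3 start interval (276.2 against 331.3 to 335.1) and at the second Pdk1 start (21.25 against 46.42 to 51.32). Replicate 2 was low at the starts of Slc16a1 (253.0 against 272.7 to 274.6) and Aldoa (398.6 against 439.9 to 446.8). Replicate 4 was high at the interval past the end of Pkm (459.9 against 402.8 to 411.4).
In Paused, Smad2_KO2 replicate 4 was high at the Pfkfb2 start (564.5 against 506.4 to 509.6), and replicate 3 was low at the same Slc2a3 interval (32.55 against 63.92 to 68.24). Smad2_KO1 replicate 4 was high at the Gpi1 start (365.5 against 292.0 to 301.2), and replicate 3 was low at the Hk1 start (431.9 against 477.9 to 479.7).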

How the results depend on the processing

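No named call reversed its direction under any alternative run. For Smad2_KO1 in Ctrl (36 calls), requiring an absolute log2 fold change of 1 left 6, the DESeq2 Wald test gave 16 and leaving out 1 library gave 16 to 35. For Smad2_KO2 in Ctrl (25), these gave 3, 15 and 14 to 31, and windows of 0 and 10 kb around the gene bodies gave 14 and 38. For both lines in Ctrl (20), the count was 13 with only the compared groups in the fit, 2 with the fold threshold, 11 with the DESeq2 Wald test, 12 with a window of 0 kb and 10 to 23 with 1 library left out. Testing the 8 knockout libraries as 1 group gave 47, and averaging knockout libraries of the same number gave 32. In Paused the fold threshold left 13 calls for Smad2_KO1 (73), 9 for Smad2_KO2 (61) and 7 for both (43), and leaving out 1 library gave 37 to 73, 34 to 66 and 26 to 49. The 8 libraries as 1 group gave 106 and averaging by number gave 67. Smad2_KO1 against Smad2_KO2 gave 0 to 0 calls with 1 library left out. The median WT pausing difference stayed between 0.05 and 0.08, and 38 to 51 intervals lay apart, with 1 library left out. The higher and lower split, 12 and 8 in Ctrl and 25 and 18 in Paused, was 6 and 14, and 13 and 39, with edgeR.
Pairing by replicate number was taken only where every pair of same-numbered libraries had a correlation of deviations over 0.1, which these did not reach. Between WT and a knockout line its range was -0.006 to 0.045 (Ctrl) and -0.007 to 0.063 (Paused). Between Smad2_KO1 and Smad2_KO2 it was higher, 0.008 to 0.109 and 0.034 to 0.187, above 0.1 in 1 and 2 of 4 pairs, and the closest library pairs shared a number. With the replicate number as a block, 22 Ctrl and 51 Paused intervals were called in both lines, and all 43 named calls kept their side of the threshold. Depth limits weak intervals: values near 10 normalized reads rest on few reads.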
